A study of Mus musculus with 4 samples.

Results

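The genes of the mammalian circadian clock studied here, *Per1*, *Per2*, *Per3*, *Cry1*, *Cry2*, *Clock*, *Arntl*, *Npas2*, *Nr1d1* and *Dbp*, were examined for m6A, the N6-methylated form of adenosine found inside mRNAs. They form a list of 10 among 21866 protein-coding genes of the GENCODE M21 annotation, and every m6A peak that overlapped an annotated exon of a listed gene by at least 1 base was taken. These peaks numbered 28 of 38533 in replicate 1 and 23 of 30134 in replicate 2. The tissue was whole brain of mice aged 4 weeks, with the strain given as C57BL/6J and the genotype as Prrc2a flox/flox, an allele in which Cre recombinase can delete *Prrc2a*. No Cre is named for these samples. The series held 4 samples, 2 of RNA bound by an antibody against m6A (IP) and 2 of input RNA. Peaks had been called in each IP replicate against its own input, and each peak had a fold enrichment, the linear ratio of IP over input. The time of day at which the brains were taken is not given in the sources used here, and the number of animals behind each replicate is not given either. Time of day, amount of RNA and methylation therefore cannot be told apart in these lists, because clock transcripts cycle and the lists hold no RNA level.

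The core clock is a feedback loop of transcription. Clock and its brain paralog Npas2 each pair with Arntl, also called Bmal1, to switch on the Per and Cry genes, and the Per and Cry proteins then return to the nucleus and repress that activation. Nr1d1, also called Rev-erbα, forms a second loop by repressing *Arntl*, and Dbp carries the rhythm to output genes. m6A is written on nascent mRNA mostly at adenosines within a short motif known as DRACH, of which GGACT is the most favoured form, and in most mRNAs it is concentrated in long internal exons and around the stop codon.

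The sequences that follow show the motif where a peak was shared by both replicates, and they were chosen because the end of the coding sequence and a long internal exon are the settings in which peaks of several of these genes recurred. The bases are those of GRCm38.p6 from RefSeq, read 5′ to 3′ on the strand of the gene, with GGACT or GGAC in capitals. In the first 3, the coding sequence runs from a GGACT to the stop codon, which is also in capitals. They lie at chr11:69109258-69109359 on the plus strand for *Per1*, chr5:76216699-76216762 on the minus strand for *Clock* and chr1:39361864-39362007 on the plus strand for *Npas2*.
Per1 end: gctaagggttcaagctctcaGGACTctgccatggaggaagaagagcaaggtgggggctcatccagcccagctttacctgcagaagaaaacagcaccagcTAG
Clock end: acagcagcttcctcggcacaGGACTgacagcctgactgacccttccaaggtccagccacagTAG
Npas2 end: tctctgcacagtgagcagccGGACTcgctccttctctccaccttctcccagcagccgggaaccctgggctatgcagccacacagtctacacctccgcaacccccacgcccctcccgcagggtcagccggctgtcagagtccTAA
The next 3 come from the longest internal exon of each Period gene, exon 19 of 23 in *Per1* and *Per2* and exon 17 of 21 in *Per3*. They lie at chr11:69106583-69106701 on the plus strand, chr1:91424349-91424479 on the minus strand and chr4:151012786-151012820 on the minus strand. The stretch of *Per1* holds GGAC at 2 places and no GGACT.
Per1 exon: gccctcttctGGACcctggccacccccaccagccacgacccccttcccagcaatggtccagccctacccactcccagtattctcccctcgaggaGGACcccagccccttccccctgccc
Per2 exon: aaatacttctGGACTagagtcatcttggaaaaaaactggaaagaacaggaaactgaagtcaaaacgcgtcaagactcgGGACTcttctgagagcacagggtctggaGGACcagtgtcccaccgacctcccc
Per3 exon: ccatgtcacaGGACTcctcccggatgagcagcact

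Peaks shared by both replicates, meaning peaks that overlapped by at least 1 base, were present on 8 of the 10 genes, *Per1*, *Per2*, *Per3*, *Cry2*, *Clock*, *Npas2*, *Nr1d1* and *Dbp*. Over all protein-coding genes, 45.5% had a shared exonic peak. *Arntl* had exonic peaks in replicate 1 alone and *Cry1* in replicate 2 alone, so that each list on its own covered 9 of 10 genes, against 54.4% of all genes in replicate 1 and 49.5% in replicate 2. All 10 genes had an exonic peak in at least one list, against 56.8% of all genes. With an enrichment of at least 2 asked of both peaks, 5 genes remained, *Per1*, *Per2*, *Clock*, *Npas2* and *Dbp*, against 36.8% of all genes. The background includes every protein-coding gene, expressed in brain or not, and the part of RNA level in these counts was not tested.

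**Figure D1:**
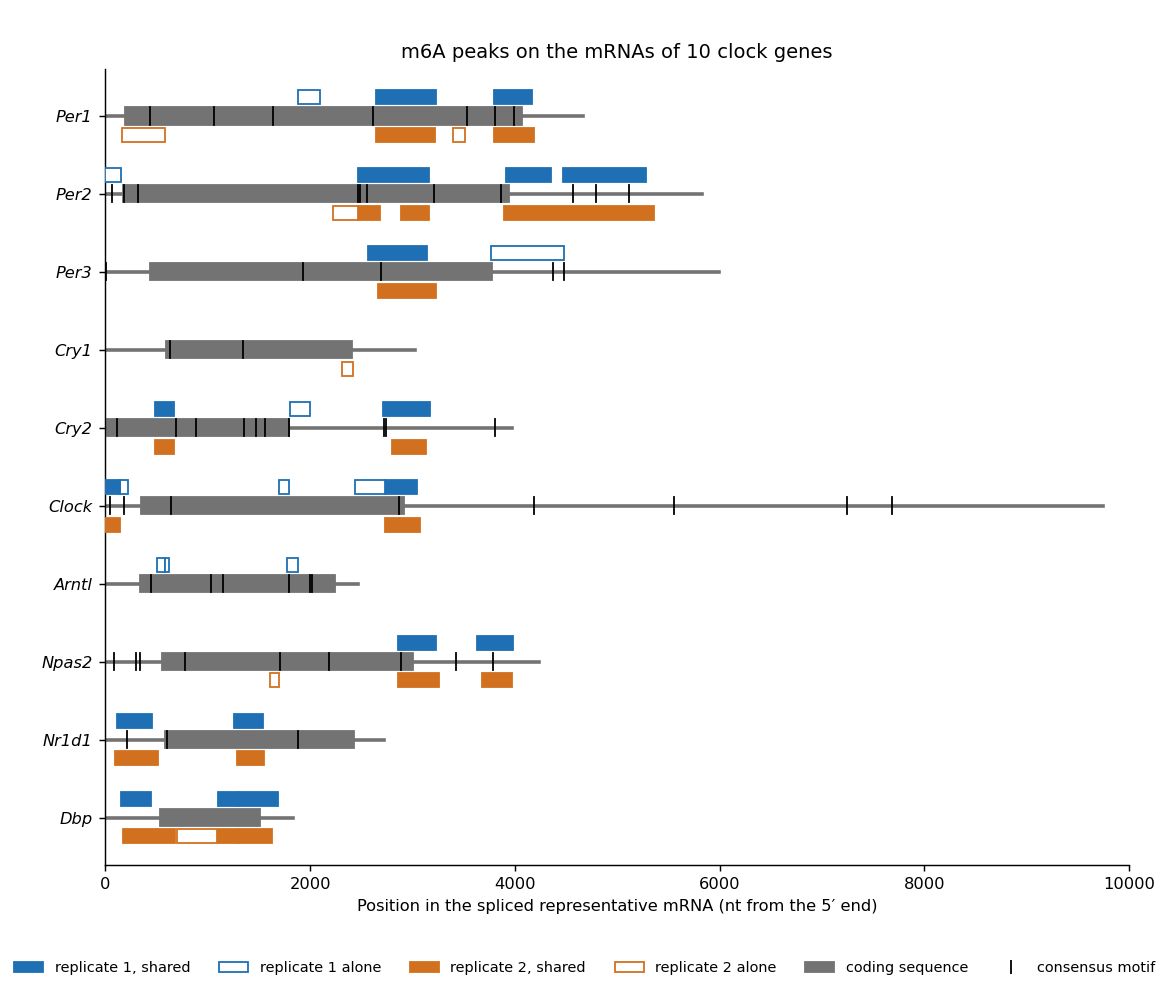
Spliced mRNAs of the 10 clock genes drawn to scale, with position in nucleotides from the 5′ end on the x axis, the coding sequence as a thick bar, UTRs as a thin line and each GGACT as a black tick. Peaks of replicate 1 lie above and those of replicate 2 below each mRNA, filled where shared and open where found in 1 list; the shared peaks of Per1, Per2, Clock, Npas2 and Dbp reach the end of the coding bar, and Cry1 and Arntl have open peaks alone.

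The Period genes encode the repressors that set the pace of the loop. In all 3 paralogs, a shared peak lay in the longest internal exon, which in each gene is followed by 4 further exons. The share of all genes with such a peak is not given here, so no trait of clock genes follows. The *Per1* interval, chr11:69106378-69107028, lay in exon 19 of 617 nt, with an enrichment of 4.45 in replicate 1 and 2.15 in replicate 2. This was the pair that differed most between replicates among the clock genes, by 1.05 on the log2 scale. Replicate 1 held a single peak of 2.87 across exon 19 of *Per2*, which is 797 nt long. Replicate 2 had 2 peaks within the same span, of 1.99 at chr1:91424274-91424554 and 2.05 at chr1:91423790-91424065. The *Per3* interval, chr4:151012356-151012832 in exon 17 of 692 nt, was weaker, at 2.31 and 1.49. Among the 9948 genes for which the strongest shared peak could be ranked by the lower of its 2 enrichments, 96.2% stood above *Per3*. In local alignments of these exons, 64.9% of aligned bases were identical between *Per1* and *Per2*, 67.2% between *Per1* and *Per3* and 60.8% between *Per2* and *Per3*. These shares leave out gap columns. With them, 376 of 685, 369 of 686 and 392 of 755 columns were identical, in the same order. The genes are paralogs, and unrelated exons were not aligned for comparison.

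*Per1* and *Per2* also carried shared peaks at the end of the coding sequence. In *Per1*, a shared interval at chr11:69109081-69109460 in the last exon spanned the stop codon, with 3.25 in replicate 1 and 2.77 in replicate 2. It held 2 GGACT sites, whose adenosines lay 266 and 77 nt before the first base of the stop codon. In *Per2*, replicate 2 held 1 wide peak of 1465 nt and 2.99-fold enrichment that ran over the stop codon and into the 3′ UTR, where replicate 1 had 2 peaks, of 2.60 over the stop codon at chr1:91417464-91417905 and 3.53 further on at chr1:91416532-91417348. The 3′ UTR interval held 3 GGACT sites, 627, 850 and 1173 nt after the stop codon. They are shown here in windows of 21 nt as the part of the *Per2* 3′ UTR with the densest motif in a shared peak, at chr1:91417236-91417256, chr1:91417013-91417033 and chr1:91416690-91416710 on the minus strand, with GGACT in capitals.
Per2 site at 627 nt: cctgctctGGACTagtggagc
Per2 site at 850 nt: ctttggttGGACTctctcaga
Per2 site at 1173 nt: gaatcattGGACTtaaaagta
With 4 shared intervals, *Per2* had the most of the 10 genes. These came from 3 shared peaks in each list, because 1 peak of each list overlapped 2 of the other. *Dbp* also had 3 shared peaks in each list. Of all genes with a shared interval, 17.1% had at least 4, and the median was 2. In *Per3*, a peak of 2.05 at chr4:151005173-151005885 spanned the stop codon in replicate 1 alone.

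The other 5 Period peaks stood in 1 list each. Replicate 1 had 1.79 at chr11:69103896-69104230 over exons 14 to 15 of *Per1* and 2.19 over the 5′ UTR of *Per2* at chr1:91459067-91459372. In replicate 2, exon 18 of *Per2* had a peak of 2.48 at chr1:91427659-91427978. *Per1* had 2 more there, of 1.73 at chr11:69100609-69101214, a span that holds the start codon, and of 1.89 at chr11:69107670-69107925.

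The Cryptochromes are the partners of the Period proteins in repression. *Cry1* had no exonic peak in replicate 1 and 1 in replicate 2, of 1.68 at chr10:85132959-85133158. At 200 nt this peak had the shortest length in either list, and 108 of its bases were exonic, over the end of the coding sequence and the stop codon. *Cry2* had a shared interval in the 3′ UTR at chr2:92404490-92404819, with 3.22 and 1.97, and a second in exon 4 at chr2:92422863-92423062, with 1.48 and 1.26. The exon 4 values were the lowest of any matched pair among the clock genes, and 96.3% of all matched pairs had a higher value in replicate 1 and 98.7% in replicate 2. An exon of the non-coding gene *D930015M05Rik* on the opposite strand overlaps this exon, and the lists give no strand, so the source of that peak cannot be told apart. *Cry2* had 10 GGACT sites in its mRNA and none within a shared interval, although 2 of them lay in the longer replicate 1 peak of its 3′ UTR. A further replicate 1 peak of 1.70, at chr2:92405621-92405919, had 200 of its 299 bases in exon 12. In the spliced mRNA, that exonic part begins just after the stop codon.

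Among the activators, *Clock* and *Npas2* each had a shared interval over the stop codon, as did 51.2% of all genes with a shared interval. *Arntl* had no shared peak at any position. Clock is the usual partner of Arntl on DNA, and Npas2 can take its place in forebrain neurons. The *Clock* interval at chr5:76216566-76216885 spanned the stop codon, with 4.16 in replicate 1 and 3.19 in replicate 2. It was the strongest of the 10 genes by the lower of both values, and 26.2% of ranked genes stood above it. Its GGACT lay 39 nt before the stop codon, in the sequence shown above. In *Npas2*, the interval at chr1:39361859-39362233 spanned the stop codon too, with 1.69 and 2.13, and its GGACT lay 119 nt before the stop codon. This was the pair, out of 16 matched by mutual best overlap, in which replicate 2 had the higher value. *Npas2* had a second shared interval in the 3′ UTR at chr1:39362679-39362969, with 3.12 and 2.26, which held a GGACT 778 nt after the stop codon.

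*Clock* also had a shared peak in the 5′ UTR, over exon 1 at chr5:76304525-76304850, with 2.58 and 2.22. This interval reaches past the annotated first base of the gene, and 138 nt of it were mRNA of the representative transcript. Replicate 1 had 3 more *Clock* peaks, of 2.88 in exon 22 at chr5:76226879-76227224, of 1.63 in exon 17 and of 1.87 in exon 2. *Clock* has a long 3′ UTR, 6831 nt in the representative transcript, with 4 GGACT sites and no peak in either list beyond the one at the stop codon. *Npas2* had a replicate 2 peak of 1.73 in exon 12 at chr1:39330822-39331136.

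*Arntl*, the common partner of Clock and Npas2, had 4 exonic peaks in replicate 1 and none in replicate 2. The strongest, of 5.47 at chr7:113283096-113283720, had the highest enrichment of any exonic clock gene peak, but 81 of its 625 bases were exonic, which is 13.0%. The others had 2.27 over a first exon outside the representative transcript, 2.09 at chr7:113284834-113285033 with 17.5% of its bases in exons, and 1.72 in exon 17 at chr7:113305907-113306223. Another peak, of 3.53, lay between exons. The exon 17 peak was the one of these that held a GGACT in the mRNA, shown for that reason from chr7:113306022-113306042 on the plus strand.
Arntl exon 17: cccaaagaGGACTcatcccac
No peak of *Arntl* recurred, so its methylation is not established by these lists, and neither is its absence.

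*Nr1d1*, the nuclear receptor of the second loop, had a shared interval in each of 2 exons. The interval in the 5′ UTR, at chr11:98774881-98775216 in exon 1, had 2.28 and 1.96 and held the GGACT of the sequence below. The interval in exon 5, at chr11:98770482-98770734, had 1.99 and 1.65. Exon 5 is the longest internal exon of *Nr1d1*, with 644 nt, as was the case for the Period genes. No shared interval of *Cry2*, *Clock*, *Npas2* or *Dbp* lay in the longest internal exon. The share of all genes with a shared interval there is not given here, so no pattern of clock genes follows. The end of *Nr1d1* overlaps an exon of *Thra* on the other strand by 263 nt, and no exonic peak of *Nr1d1* reached that end. The 5′ UTR windows of *Nr1d1* and *Clock*, at chr11:98775111-98775131 and chr5:76304733-76304753 on the minus strand, are shown as the GGACT sites of a shared peak before a start codon.
Nr1d1 5′ UTR: ttcctttgGGACTtttgcacc
Clock 5′ UTR: gcaatcacGGACTcggctggc

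*Dbp*, a transcription factor of the PAR bZIP family, is a short gene of 4 exons, and shared intervals covered 43.7% of its mRNA, or 25.7% without the interval in exon 4, against 30.0% in *Per2*. The interval in the 5′ UTR, chr7:45705264-45705536, had 2.96 and 2.03, that in exon 3, chr7:45708272-45708624, had 2.87 and 2.07, and that in exon 4, chr7:45709533-45709993, had 3.01 and 2.09. The 3 values of each replicate lay close together, and replicate 1 was higher each time. In replicate 2, exon 2 also had a peak, of 1.43 at chr7:45706631-45707016. The exon 4 interval spans the stop codon, but exons of *Sphk2* on the opposite strand overlap the end of *Dbp* by 539 nt. The lists give no strand, so the source of this interval cannot be told apart. It was left out of the summary of placed intervals below. The matched pairs and the counts of GGAC sites and of intervals that hold a stop codon keep it under *Dbp*. The *Dbp* mRNA has no GGACT. It has 12 GGAC sites, of which 6 lay in shared intervals, and the windows below give those of the 5′ UTR, at chr7:45705328-45705348, chr7:45705398-45705418 and chr7:45705514-45705534, and of the end of the coding sequence, at chr7:45709862-45709882, all on the plus strand.
Dbp 5′ UTR, site 1: tcccttggGGACccacagttg
Dbp 5′ UTR, site 2: gcctcccgGGACagtctttga
Dbp 5′ UTR, site 3: cgactctgGGACacattcgcc
Dbp end: ccagcatgGGACactgtgagg

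Position was summarised over the 17 shared intervals whose midpoint fell in a representative exon of 1 protein-coding gene. They include the *Cry2* exon 4 interval, whose midpoint also lies in an exon of the non-coding gene *D930015M05Rik*, and leave out the exon 4 interval of *Dbp*. Of these, 3 lay in a 5′ UTR, those of *Clock*, *Nr1d1* and *Dbp*, 9 in coding sequence and 5 in a 3′ UTR, or 17.6%, 52.9% and 29.4%. Over the 19717 such intervals of all protein-coding genes, the shares were 9.26%, 61.8% and 28.9%. The midpoint lay within 200 nt of the stop codon for 23.5% of the clock gene intervals and 23.0% of all intervals. Counted by gene, 4 of 8 had such an interval, *Per1*, *Per2*, *Clock* and *Npas2*, against 47.5% of all genes with a placed interval, so the share of the clock genes was near the background. A shared interval that held the stop codon itself was found in 5 of 8, the same 4 and *Dbp*, against 51.2% of all genes with a shared interval. When the peaks of either list were counted, 7 of 10 had a peak over the stop codon, with *Per3* and *Cry1* added, against 59.4% of all genes with a peak.

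GGACT, searched on the strand of the gene in the genomic sequence of each interval, was present in 9 of the 17 placed intervals (52.9%), against 43.0% of all such intervals. The shorter GGAC was in 14 (82.4%), against 82.0%, and DRACH, of which GGACT is a form, was in 16 (94.1%), against 98.7%. The interval without a DRACH was that of the *Cry2* 3′ UTR. A short motif is often present in a stretch of this length, the median being 330 nt, and the clock gene shares for GGAC and DRACH were near those of all intervals. Across the whole spliced mRNAs of the 8 genes with a shared interval, 13 of 53 GGACT sites lay in shared intervals (24.5%), which made up 15.9% of the mRNA. Over the 9685 genes with a shared interval in the representative mRNA, 29.0% of GGACT sites lay in the 20.1% of the mRNA that was shared. Most GGACT sites of the clock genes were thus outside the shared peaks, and a match marks letters and not a methylated base.

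The enrichment of a clock gene peak differed between replicates, as did that of other peaks. For 16 pairs of peaks that were each other's best match, the median was 2.92 in replicate 1 and 2.08 in replicate 2, against 2.98 and 2.30 over 21001 exonic pairs of all genes. The median log2 ratio of replicate 1 to replicate 2 was 0.42 (SD 0.30, 16 pairs), and replicate 1 was higher in 15 of 16. The matching left out the *Per2* overlap at the stop codon, with 2.60 in replicate 1 and 2.99 in replicate 2. It also left out a *Per2* overlap in exon 19, with 2.87 in replicate 1 and 2.05 in replicate 2. Over all pairs the median log2 ratio was 0.37 (SD 0.47), with replicate 1 higher in 78.3%. The whole lists had medians of 2.88 and 2.20. The whole lists are offset in the same direction, and the SD of 0.30 gives the spread of the clock gene pairs around their own mean. With 2 replicates no test of a gene was made.

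**Figure D2:**
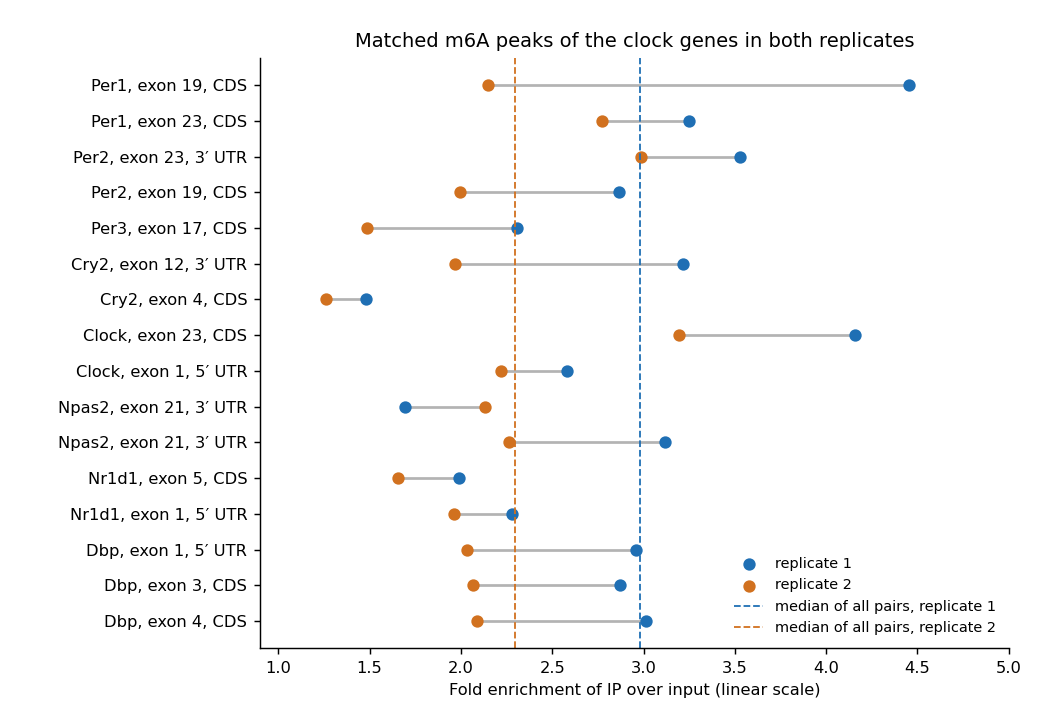
Fold enrichment of IP over input, on a linear x axis, for the 16 matched peak pairs of the clock genes, labelled by gene, exon and the region of the midpoint, with 1 point per replicate and no error bars. Dashed lines mark the medians of all 21001 matched exonic pairs, 2.98 in replicate 1 and 2.30 in replicate 2; replicate 1 is higher in 15 of 16 pairs, with Npas2 at the stop codon as the exception.

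Ordered by the lower of both enrichments at their strongest shared peak, the genes ran from *Clock* (3.19), *Per2* (2.99) and *Per1* (2.77) through *Npas2* (2.26) and *Dbp* (2.09) to *Cry2* (1.97), *Nr1d1* (1.96) and *Per3* (1.49). The median over all 9948 ranked genes was 2.65, with quartiles of 2.14 and 3.23. *Clock*, *Per2* and *Per1* thus lay between the median and the upper quartile, *Npas2* lay between the lower quartile and the median, and *Dbp*, *Cry2*, *Nr1d1* and *Per3* lay below the lower quartile. The neighbours in this order differed by less than the strongest peak of either gene differed between replicates, except *Per1* and *Npas2*, and *Nr1d1* and *Per3*, whose distance was larger than the replicate difference of *Per1* and of *Nr1d1* but smaller than that of the other gene.

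Of the clock gene peaks, 17 of 28 in replicate 1 were shared (60.7%, 95% Wilson interval 42.4 to 76.4%), against 67.8% of exonic peaks of all genes. In replicate 2, 17 of 23 were shared (73.9%, 53.5 to 87.5%), against 76.8%. Both intervals include the share of all genes, but they treat peaks of 1 gene as independent and so test no difference. Unshared peaks had lower median enrichment, with 2.05 against 2.87 for the shared in replicate 1 and 1.73 against 2.07 in replicate 2. Over all genes, the medians were 2.30 against 2.96 in replicate 1 and 1.81 against 2.30 in replicate 2. The highest clock gene peak, of 5.47 in *Arntl*, was nevertheless unshared, and the highest shared peak had 4.45. The intervals cover counting error alone, and peaks of 1 gene share their RNA.

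The wider clock was represented by 20 further genes in 3 groups, and 19 of them had a shared exonic peak, against 45.5% of all protein-coding genes. Among the transcription factors, 8 of 9 had one, and *Arntl2*, the paralog of *Arntl*, had no peak in either list. *Rora*, which activates *Arntl* where Nr1d1 represses it, had the strongest by the lower of both values, at chr9:69378744-69379514 in the 3′ UTR, with 5.77 and 4.74. *Bhlhe41*, a repressor of the Clock and Arntl pair, reached 7.31 in replicate 1 and 3.18 in replicate 2. *Nr1d2*, the paralog of *Nr1d1*, reached 5.37 in replicate 1 and 3.41 in replicate 2, both above any peak of *Nr1d1*. All 3 genes of the PAR bZIP group had shared peaks, with *Nfil3*, the repressor that competes with Dbp for its sites, strongest by the same measure, at 5.73 and 3.13 at chr13:52967275-52967932. *Tef* and *Hlf*, the relatives of *Dbp*, reached 3.65 and 3.07 in replicate 1 and 2.86 and 2.46 in replicate 2. All 8 genes for kinases and the ubiquitin pathway, which set the stability of the Period and Cryptochrome proteins, had shared peaks. *Fbxl21*, a ligase for the Cryptochromes, had the strongest of this group by the lower of both values, with 3.90 and 5.50. *Csnk1e*, a kinase of the Period proteins, reached 5.72 in replicate 1 and 2.32 in replicate 2. *Arntl2*, *Bhlhe41*, *Nr1d2*, *Tef*, *Hlf* and *Csnk1e* were singled out after their values were seen. The values that these genes reached are the highest of any exonic peak in each list and need not come from the same shared peak. No difference from the first 10 was tested.

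**Figure D3:**
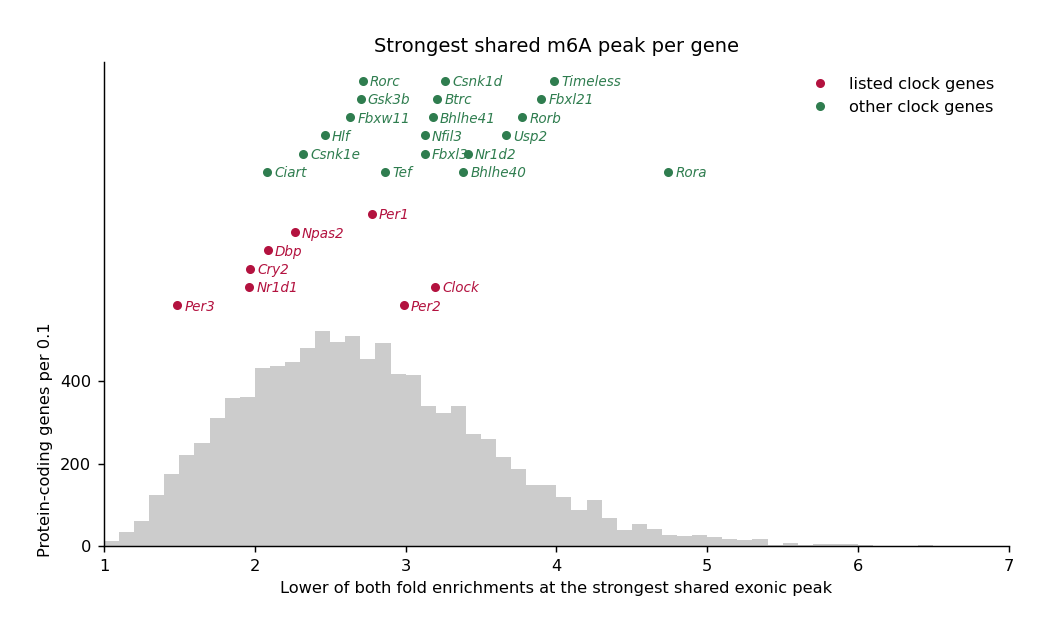
Histogram of the lower of both fold enrichments at the strongest shared exonic peak for 9948 protein-coding genes (x axis, linear ratio; y axis, genes per bin of 0.1), with the 8 listed clock genes that have a shared peak in red and 19 other clock genes in green; the height of the points has no meaning. Red points run from 1.49 for Per3 to 3.19 for Clock, and Rora lies farthest right among the green points at 4.74.

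The tissue label was checked with markers of brain cells and of other organs. All 8 brain markers, among them *Map2*, *Gfap*, *Mbp* and *Csf1r*, had shared exonic peaks, against 45.5% of all protein-coding genes. *Alb*, *Apoa1*, *Ins2* and *Krt5* had no exonic peak in either list. *Myh6*, a cardiac myosin, had 3 peaks in replicate 1 and 1 in replicate 2, with 1 shared. The lower enrichment of that shared peak was 3.17, above all 8 brain markers, whose highest was 2.68 for *Slc1a2*. Of the listed clock genes, *Clock* alone stood higher, at 3.19. The part of the *Myh6* signal in the results above was not tested.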

How the data were processed

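Per the labels, brain mRNA was isolated, fragmented and immunoprecipitated, and the molecule is listed as total RNA. The authors aligned reads to mm10 (TopHat2 2.0.9 in the submitters' processing notes, which name MACS2 without a version) and called peaks in each IP replicate against its own input, without a fragment model and keeping duplicates, at a false discovery rate threshold. The deposited fold enrichment is a linear ratio of IP over input. Peaks are spans of the genome, so they can include introns. The lists hold no counts, strand or p-values, and the sequencing depth is unknown here. No processed file of the input samples was analysed here.

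Coordinates count both ends. Exons came from GENCODE M21 and sequence from RefSeq GRCm38.p6, which has the mm10 chromosomes. Of 21951 protein-coding genes, 21866 had a representative transcript (longest coding sequence). Shared intervals are the bases common to overlapping peaks of both lists and were placed by their midpoint. Matched pairs are mutual best overlaps. By rule, every exonic peak of a member was named, and for other groups the gene with the strongest shared peak. Members and lists were chosen with earlier results of these data known. Python 3.11.15, pandas 2.3.3, pysam 0.24.0 and Biopython 1.88 were used. Overlap and placement were tested on simulated data, and overlaps checked against bedtools 2.31.1. Alternatives were the overlap rule, enrichment thresholds, the exon set, the stop codon window, the motif, centring and each list alone.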

Additional observations from a re-analysis of the deposited data

How the results depend on the processing

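Of 30 alternatives over 8 results, 22 left the result within its limits. Shared peaks were found on 8 members under a 50% overlap of both peaks and on 7 with midpoints within 100 bases (without *Per2*). At an enrichment of at least 2 in both lists, 5 members remained, against 36.8% of all genes, and at 3 there was 1, *Clock*. The shares of all genes under both overlap rules and at 3 are not given here. Either list alone gave 9 (range 9 to 9). At an enrichment of at least 2, replicate 2 kept 12 exonic peaks of 23. With midpoints within 100 bases, 52.2% of the replicate 2 peaks were shared, where any overlap gave 73.9%. Dividing each list by its median moved the median log2 ratio from 0.42 to 0.032. Stop codon intervals were found on 3 to 5 members, and the shares of all genes under the alternative windows are not given here. The share of intervals with a motif was 82.4% for GGAC, 94.1% for DRACH and 23.5% for GGACT within 100 nt around the midpoint, against 52.9%. Over all placed intervals, 15.8% held GGACT within 100 nt around the midpoint. The enrichment threshold and the narrower match leave fewer peaks by construction. No paired analysis was possible because the results come from no test and no values of the input samples were analysed here. Without read depth, a missing peak gives no bound on methylation.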
